A study of Mus musculus with 167 samples.

Results

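Trp53, which encodes the transcription factor p53, and 9 genes that p53 activates were followed in single lymphoid-primed multipotent progenitors (LMPPs) of 14-month-old and 4-month-old mice. The 10 genes were taken as a named set, not by a threshold on their levels, and were found by symbol among the 38924 gene identifiers of the table. They are Trp53, Mdm2, Ccng1, Gadd45a, Sesn2, Phlda3, Zmat3, Aen, Trp53inp1 and Eda2r. LMPPs are early marrow progenitors that feed the lymphoid lineages and the granulocytes and monocytes.

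All mice were female and of the strain C57Bl/6J, and the labels name neither a transgene nor a treatment. Marrow cells without mature lineage markers were sorted as Sca-1 and c-Kit positive, CD150 negative, CD34 positive and Flt3 high, and were captured on a Fluidigm C1 microfluidic chip. Of the 84 columns of 14 months, 66 were kept, and of the 84 columns of 4 months, 64 were kept, because they held at least 1000 genes at 1 or more TPM, transcript abundance scaled to a fixed total per cell. The labels name no animal, so each age counts as 1 sample and no p-value is given. The 14-month columns carry the set number 4 (29 kept cells) or 5 (37 kept cells), which the labels do not explain, while the 4-month columns carry none, so age and whatever the numbers stand for cannot be told apart.

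p53 is kept low in resting cells by Mdm2, a ubiquitin ligase that marks it for destruction and is itself a p53 target, which closes a feedback loop. DNA damage and other stress stabilise the protein, so p53 activity is set mostly at the protein level, and the messenger of Trp53 alone does not report it. The stabilised protein binds paired copies of a short decamer in DNA and switches on genes for cell cycle arrest, DNA repair, metabolic restraint and cell death. In blood progenitors p53 is known for limiting self-renewal and for removing damaged cells.

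The stretch of DNA before the start site was available in RefSeq (build GRCm38.p6) for 8 of the 10 genes, the others being Zmat3 and Trp53inp1. The p53 decamer was searched in the 250 bases before each RefSeq start. Its pattern reads the same on both strands. It occurred in a window of 5 of the 8 genes, and in 7.13% of the 32851 windows of that length in the same table. The former counts genes and the latter windows, of which a gene can have more than 1, so they are not like for like. These 5 windows are shown because their genes are 5 of the 6 whose levels could be measured. Each holds 1 exact match to the decamer pattern. Decamers with a mismatch were not counted, so the search cannot tell whether a match is 1 of the paired copies that p53 binds. The match is in capitals and the rest in lower case, each 5′ to 3′ on the gene's own strand. The window of Trp53 lies at chr11:69580109-69580358 (plus strand), that of Mdm2 at chr10:117710759-117711008 (minus strand), that of Ccng1 at chr11:40755287-40755536 (minus strand), that of Gadd45a at chr6:67037408-67037657 (minus strand) and that of Aen at chr7:78895808-78896057 (plus strand). The window of another listed start of Aen holds no match, and neither do those of Phlda3, Sesn2 and Eda2r. The gene spans given below come from GENCODE, and the windows shown for Ccng1, Gadd45a and Aen reach into them. The matches of Gadd45a and Aen lie inside those spans.

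Trp53: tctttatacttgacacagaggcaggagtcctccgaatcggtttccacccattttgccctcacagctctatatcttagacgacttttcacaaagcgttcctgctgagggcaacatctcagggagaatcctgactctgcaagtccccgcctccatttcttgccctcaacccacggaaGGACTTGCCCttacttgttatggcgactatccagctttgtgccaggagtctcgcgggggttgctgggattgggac

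Mdm2: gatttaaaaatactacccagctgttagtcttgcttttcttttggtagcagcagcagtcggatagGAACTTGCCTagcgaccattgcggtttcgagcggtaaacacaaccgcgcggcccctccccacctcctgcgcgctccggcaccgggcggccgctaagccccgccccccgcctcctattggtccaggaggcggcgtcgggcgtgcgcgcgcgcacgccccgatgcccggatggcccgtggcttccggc

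Ccng1: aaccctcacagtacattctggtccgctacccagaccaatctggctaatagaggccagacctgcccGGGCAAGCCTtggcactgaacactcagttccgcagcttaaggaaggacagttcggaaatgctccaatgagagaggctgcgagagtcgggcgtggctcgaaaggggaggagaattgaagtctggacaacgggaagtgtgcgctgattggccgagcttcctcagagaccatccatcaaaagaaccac

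Gadd45a: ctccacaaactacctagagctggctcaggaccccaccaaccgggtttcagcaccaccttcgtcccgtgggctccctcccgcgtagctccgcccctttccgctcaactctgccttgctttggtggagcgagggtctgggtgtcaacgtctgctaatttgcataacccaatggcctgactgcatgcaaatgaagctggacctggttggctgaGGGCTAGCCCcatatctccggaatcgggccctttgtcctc

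Aen: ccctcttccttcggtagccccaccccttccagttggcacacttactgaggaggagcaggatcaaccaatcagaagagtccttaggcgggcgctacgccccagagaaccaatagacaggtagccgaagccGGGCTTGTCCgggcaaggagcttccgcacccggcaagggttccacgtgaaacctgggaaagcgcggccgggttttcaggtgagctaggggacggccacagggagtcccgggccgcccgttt

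A match describes letters only, and p53 elements outside these windows were not searched.

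Some facts of the cells touch every value below. The median number of genes at TPM 1 or more was 3281 in 14-month cells (3230 in set 4 and 3376 in set 5) and 3974.5 in 4-month cells. The 18 columns of 14 months left out for few genes were 16 of set 4 and 2 of set 5, and 20 columns of 4 months were left out. With TPM the depth of a cell is unknown. The mitochondrial share of TPM had a median of 17.7% at 14 months and 12.4% at 4 months. Of the genes of the sort, Flt3 was found in 61 of 66 cells at 14 months and 64 of 64 at 4 months, Cd34 in 58 and 57, Kit in 35 and 43 and Ly6a (Sca-1) in 25 and 25, and Slamf1 (CD150) was listed at 0 in every cell. Of the markers of other lineages, 2 of 5 T cell, 1 of 8 granulocyte and monocyte, 2 of 5 erythroid and 1 of 5 megakaryocyte genes were listed at 0 in every cell, among them Cd3e, Ly6g and Gata1. Others were common: Mpo was found in 41 cells of 14 months and 35 of 4 months, Lck in 18 and 30, and Cd79b in 16 and 25. The summed level of the granulocyte and monocyte genes had a median of 50.0 TPM (0 to 31407 TPM) at 14 months and 105 TPM (0 to 5906 TPM) at 4 months. The median summed level was 0 at each age for the T cell and erythroid genes, and 0.795 TPM at 14 months against 6.68 TPM at 4 months for the megakaryocyte genes. The part of these genes in the results was not tested.

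Trp53, at chr11:69580359-69591873 on the plus strand, was by far the most common of the 10 genes. It was found in 52 of 66 cells at 14 months (78.8%, 95% interval 67.0 to 87.9%), against 51 of 64 cells at 4 months (79.7%, interval 67.8 to 88.7%). Intervals are exact binomial (Clopper-Pearson) ones and cover counting error only. In the 14-month cells the lowest value was 0, the median 286 and the highest 2131 TPM. In the 4-month cells these were 0, 214 and 1510 TPM. The ages thus overlapped over most of their range, and its mean TPM stood above those of 96.3% of the 9224 measured genes. A gene was called measured when the mean of its shares of cells at the 2 ages was at least 10%.

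The mean of log2(TPM + 1) of Trp53 was 6.42 (its SD among cells 3.67) at 14 months and 6.00 (SD 3.90) at 4 months. That is a difference of 0.42 on the log2(TPM + 1) scale. The median measured gene differed by -0.36 between the ages, so differences below are given relative to it, and Trp53 was at 0.78. The scale understates the change of low genes. In 44 pairs of cells matched on the number of genes detected, Trp53 was at 1.83 and was found in 93.2% of 14-month and 77.3% of 4-month cells. Matching changed which 14-month cells were counted, from 52 of 66 with Trp53 to 41 of 44. At 4 months these counts were 51 of 64 and 34 of 44.

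The 2 sets of 14-month cells did not show Trp53 alike. In set 4 it was found in 18 of 29 cells (62.1%, interval 42.3 to 79.3%), with a median of 150 TPM and a highest value of 1079 TPM. In set 5 it was found in 34 of 37 cells (91.9%, interval 78.1 to 98.3%), with a median of 400 TPM and a highest value of 2131 TPM. The share at 4 months lay between them. The relative difference from the 4-month cells was therefore -0.51 for set 4 and 1.82 for set 5, opposite in sign. A difference of 1 or more in size was reached by 11.3% of measured genes in set 4 and by 13.2% in set 5, where 6.63% reached it upward. In cells that held the gene, the median level was nearly the same, 408 TPM in set 4, 432 TPM in set 5 and 366 TPM at 4 months, so the sets differed mainly in how many cells held it. Cells without Trp53 were also cells with fewer genes. In set 4 the median was 3847 genes in cells with Trp53 and 2403 in cells without it. Among set 4 cells under 3789.5 genes, the median of all kept cells, 8 of 19 held Trp53, against 20 of 23 such cells in set 5. All 10 cells of set 4 and all 14 cells of set 5 above that number held it. The part that the number of genes plays in the set difference was not tested. A further 6 cells of set 4 held Trp53 at a TPM between 0 and 1, as did 1 cell of set 5 and 0 cells of 4 months.

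**Figure D1:**
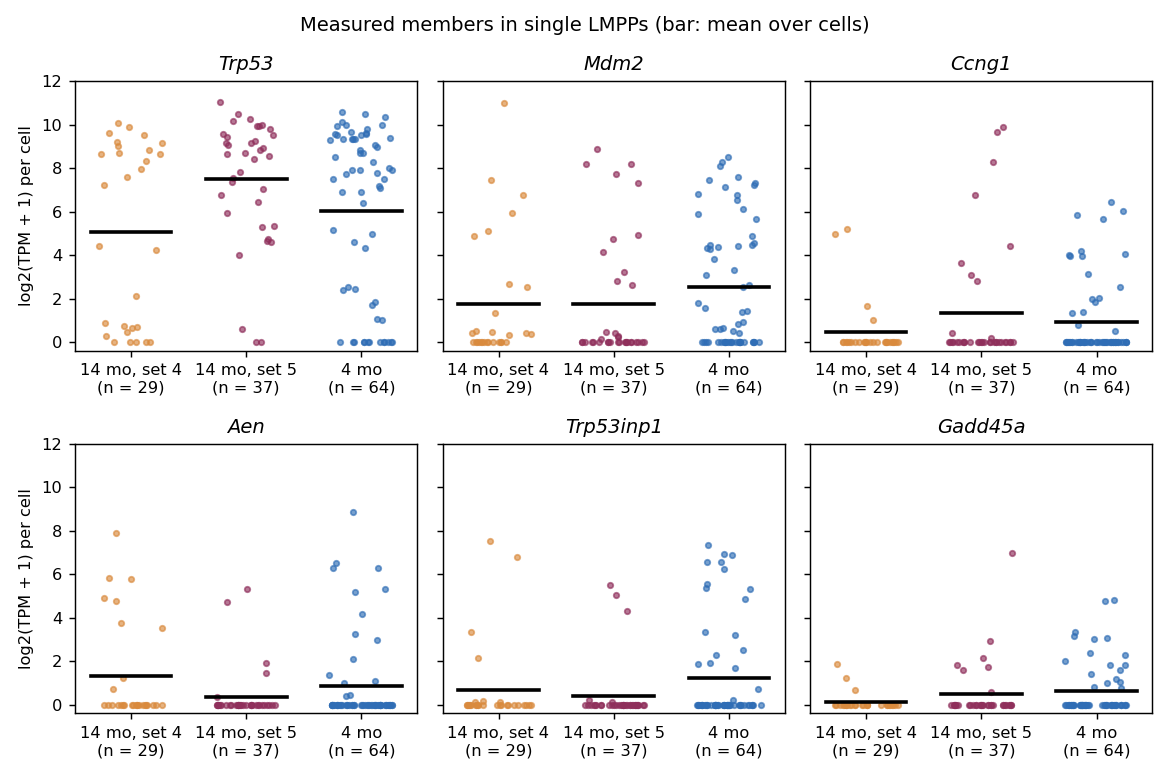
Level of the 6 measured genes in each kept cell, as log2(TPM + 1) on the vertical axis, for 14-month set 4 (29 cells), 14-month set 5 (37 cells) and 4 months (64 cells). Each point is 1 cell and the bar is the mean over cells. Trp53 forms a band of high cells in every group, with a larger share of cells at or near 0 in set 4, whereas Ccng1, Aen, Trp53inp1 and Gadd45a sit at 0 in most cells.

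Mdm2 (chr10:117688875-117710758, minus strand) was the most common of the 9 targets, found in 20 of 66 cells at 14 months (30.3%, interval 19.6 to 42.9%), against 31 of 64 cells at 4 months (48.4%, interval 35.8 to 61.3%), so the intervals overlap. The median was 0 TPM at 14 months against 0.840 TPM at 4 months, and the highest cell had 2065 TPM at 14 months against 363 TPM at 4 months. The mean TPM was nevertheless higher at 14 months, 60.4 against 38.4 TPM at 4 months. Without the highest cell of each age it was 29.6 TPM at 14 months against 33.3 TPM at 4 months, so that order of the means rested on 1 cell. On the log2(TPM + 1) scale the mean was 1.73 (its SD among cells 2.88) at 14 months and 2.51 (SD 2.90) at 4 months. This placed it -0.42 from the median gene, at -0.36 in set 4 and -0.44 in set 5. Mdm2 kept this sign in each of 19 alternative ways of processing the data, between -0.88 and -0.16. It was also found in fewer 14-month cells when the ages were matched on genes detected, in 27.3% of 44 cells at 14 months and 38.6% of 44 cells at 4 months.

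Ccng1 (chr11:40748552-40755311, minus strand) encodes cyclin G1, a p53 target that acts back on the Mdm2 loop. Its transcripts were in 12 cells of 14 months (18.2%, interval 9.76 to 29.6%), against 16 cells of 4 months (25.0%, interval 15.0 to 37.4%). The median was 0 TPM at both ages, and the highest cell had 945 TPM at 14 months against 86.5 TPM at 4 months. Its mean log2(TPM + 1) was 0.94 at 14 months and 0.93 at 4 months. Relative to the median gene it was at 0.36, at -0.063 in set 4 and at 0.73 in set 5, and it kept its sign in 14 of 19 alternatives. Fewer 14-month cells thus held the gene, but a few of them held much more. The highest, at log2(TPM + 1) of 9.88 and 9.65, were set 5 cells with only 1041 and 1052 genes detected. Relative to the median gene, Ccng1 was at -0.066 in cells with 2000 or more genes and at -0.15 in cells matched on genes detected. The median in cells with Ccng1 was 25.3 TPM at 14 months against 14.6 TPM at 4 months.

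Gadd45a (chr6:67035096-67037457, minus strand), a growth arrest gene induced by DNA damage, was found in 8 cells of 14 months (12.1%, interval 5.38 to 22.5%), against 16 cells of 4 months (25.0%, interval 15.0 to 37.4%). It was also the measured member with the lowest mean level, and stood above only 4.29% of measured genes. Its mean was 2.24 TPM at 14 months against 1.70 TPM at 4 months, but 0.340 and 1.30 TPM without the highest cell of each age. The highest cell had 126 TPM at 14 months against 26.8 TPM at 4 months. It lay close to the median gene, at 0.055 in all, -0.072 in set 4 and 0.19 in set 5, and kept its sign in 10 of 19 alternatives. Gadd45a overlaps E230016M11Rik on the opposite strand, a transcript found in 3.03% of 14-month and 6.25% of 4-month cells, and the sources used here do not say whether strand was used.

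Aen (chr7:78895854-78911209, plus strand) encodes a nuclease that takes part in p53-driven cell death. It was present in 12 cells at each age, 18.2% at 14 months and 18.8% at 4 months. The highest cell had 234 TPM at 14 months against 468 TPM at 4 months. Relative to the median gene it was at 0.28, with the sets on opposite sides, 0.88 in set 4 and -0.15 in set 5. It kept its sign in 14 of 19 alternatives. It was in 27.6% of set 4 cells (8 of 29 cells, interval 12.7 to 47.2%), against 10.8% of set 5 cells (4 of 37 cells, interval 3.03 to 25.4%). The order of the sets was thus the reverse of that for Trp53.

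Trp53inp1 (chr4:11156431-11174379, plus strand) encodes a p53-induced nuclear protein that promotes cell death and autophagy. Detection was in 7 cells of 14 months (10.6%, interval 4.37 to 20.6%), against 17 cells of 4 months (26.6%, interval 16.3 to 39.1%). The mean level was 6.08 TPM at 14 months against 13.2 TPM at 4 months, or 3.37 and 10.9 TPM without the highest cell of each age. The mean log2(TPM + 1) was 0.54 (SD 1.64) at 14 months and 1.24 (SD 2.29) at 4 months. It lay -0.35 from the median gene, below it in set 4 (-0.12) and in set 5 (-0.49). Cells that held it had similar amounts, with medians of 31.7 TPM at 14 months against 38.5 TPM at 4 months.

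The other 4 members were too rare to be measured. Sesn2 (chr4:132492032-132510501, minus strand), a stress-induced brake on the mTORC1 growth pathway, was found in 5 cells of 14 months (7.58%, interval 2.51 to 16.8%), against 1 cell of 4 months (1.56%, interval 0.0396 to 8.40%). At TPM 1 or more it was the only member with a higher share at 14 months, and 4 of those 5 cells belonged to set 5. Phlda3 (chr1:135766119-135769136, plus strand), an inhibitor of the kinase Akt, was found in 0 of 66 cells of 14 months, which allows a share of cells at TPM 1 or more of up to 4.55% (3 of 66 cells; the exact upper limit is 5.44%), and in 3 of 64 cells of 4 months (4.69%, interval 0.977 to 13.1%). Zmat3 (chr3:32334792-32366014, minus strand), an RNA-binding zinc finger protein, was found in 2 cells at each age, with highest values of 21.0 TPM at 14 months against 45.6 TPM at 4 months. Eda2r (chrX:97333840-97377216, minus strand), a receptor of the tumour necrosis factor family, was listed at 0 in every kept cell, which by the same count of 3 cells allows a share of up to 4.55% at 14 months and 4.69% at 4 months (exact upper limits 5.44% and 5.60%).

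**Figure D2:**
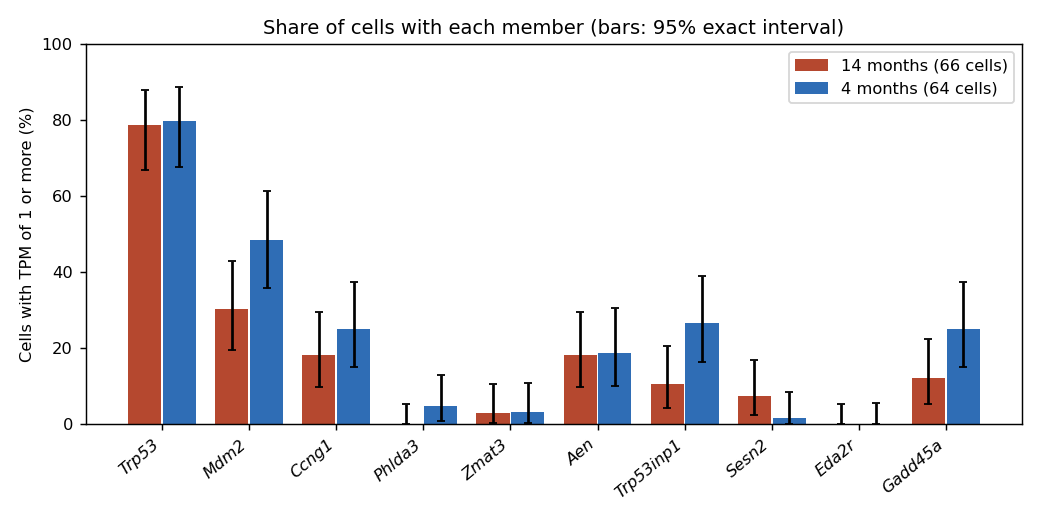
Share of cells with each member at TPM 1 or more (vertical axis, percent), at 14 months (66 cells) and 4 months (64 cells), with exact 95% binomial intervals. Trp53 stands near 80% at each age, Mdm2 follows at 30.3% and 48.4%, and the intervals of the ages overlap for every gene.

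Among the 10 genes, 6 were measured, and 6 of these 6 had a lower share of cells at 14 months. This is close to the background, since 81.4% of all measured genes did. When any TPM above 0 counted, Trp53 was in the larger share at 14 months, 89.4% against 79.7% at 4 months. The intervals of the 2 ages were apart for 0 members, while they were apart with a lower share at 14 months for 8.16% of measured genes and with a higher one for 0.0867%. No member reached a relative difference of 1 in size, which 8.46% of measured genes did. The mean log2(TPM + 1) was lower at 14 months for 4 of the 6, against 77% of measured genes, and 2 (Mdm2 and Trp53inp1) lay under the median gene. The median relative difference of the 6 was 0.17 (set 4 -0.094, set 5 0.017).

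In order of mean TPM, Trp53 was first and Mdm2 second at both ages. At 14 months they were followed by Ccng1 (34.5 TPM), Aen (7.47 TPM), Trp53inp1 (6.08 TPM), Sesn2 (5.24 TPM), Gadd45a (2.24 TPM) and Zmat3 (0.441 TPM). At 4 months the order after Mdm2 was Trp53inp1 (13.2 TPM), Aen (12.9 TPM), Ccng1 (5.61 TPM), Gadd45a (1.70 TPM), Sesn2 (1.58 TPM), Phlda3 (1.30 TPM) and Zmat3 (0.905 TPM). From Ccng1 downward at 14 months, and from Trp53inp1 downward at 4 months, the median over cells was 0 for each gene. The median of Mdm2 was 0 at 14 months as well. Whether neighbours in the order differ beyond the spread over cells was not tested.

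How many of the 10 genes a cell held was then counted. The cells of 14 months held a mean of 1.79 members and those of 4 months 2.33. At least 3 members were found in 15 of 66 cells at 14 months (22.7%, interval 13.3 to 34.7%), against 32 of 64 cells at 4 months (50.0%, interval 37.2 to 62.8%). These intervals do not overlap. As a background, 81.4% of all measured genes had a lower share of cells at 14 months, and the intervals were apart in that direction for 8.16%. Those values are for single genes. No such count was made for other sets of 10 genes, so whether the gap is particular to these genes was not tested. Cells with at least 3 members made up 17.2% of set 4 and 27.0% of set 5. At least 1 of the 9 targets was found in 66.7% of 14-month cells (interval 54.0 to 77.8%), against 76.6% of 4-month cells (interval 64.3 to 86.2%), and at least 2 in 27.3% (interval 17.0 to 39.6%), against 51.6% (interval 38.7 to 64.2%).

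That difference depended on where detection was set. When any TPM above 0 counted, 3 or more members were found in 47.0% of 14-month cells (interval 34.6 to 59.7%), against 56.2% of 4-month cells (interval 43.3 to 68.6%), which overlap widely. At TPM 5 or more in the same cells, the shares were 15.2% (interval 7.51 to 26.1%), against 29.7% (interval 18.9 to 42.4%), which overlap too. Cells with more genes detected also held more members, with Spearman's rho over cells of 0.35 at 14 months (66 cells) and 0.50 at 4 months (64 cells), 2 counts that share the depth of the cell. In 44 pairs of cells matched on genes detected, at least 3 members were held by 25.0% of the 14-month cells (interval 13.2 to 40.3%), against 45.5% of the 4-month cells (interval 30.4 to 61.2%). Among cells under 3789.5 genes the shares were 19.0% and 34.8%, and among those above 29.2% and 58.5%. The share was the lower one at 14 months in each of these comparisons, and the part of depth in it was not tested.

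**Figure D3:**
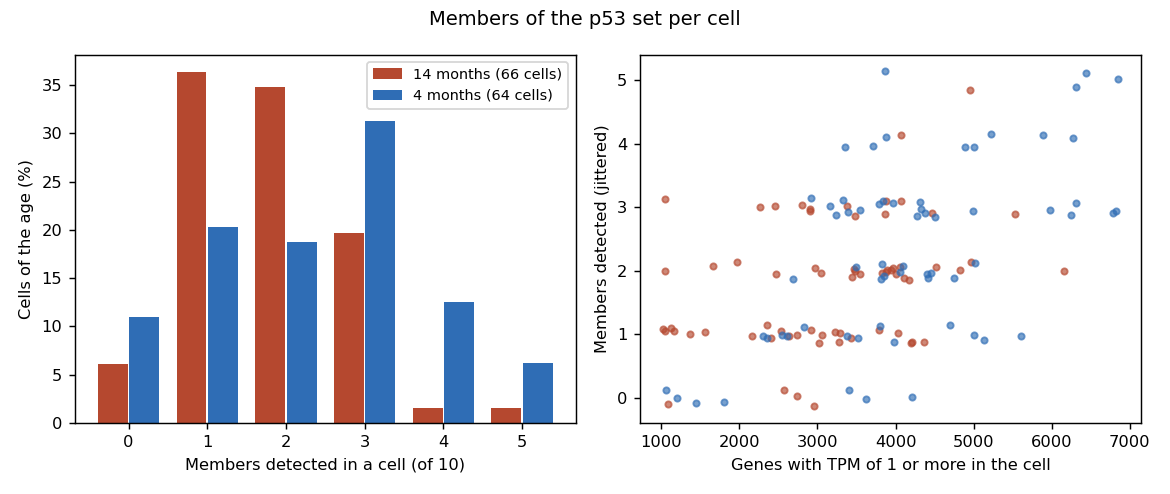
Left, the percent of cells of each age (vertical axis) that held 0 to 5 of the 10 genes (horizontal axis). Right, members detected in each cell against the number of genes at TPM 1 or more, with points moved slightly up or down so they can be seen. Cells of 14 months pile up at 1 and 2 members (36.4% and 34.8% of cells), and cells of 4 months at 3 (31.2%).

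Targets were next compared between cells with and without Trp53 transcripts. At 14 months, at least 1 target was found in 34 of 52 cells with Trp53 (65.4%, interval 50.9 to 78.0%), against 10 of 14 cells without it (71.4%, interval 41.9 to 91.6%). At 4 months it was found in 43 of 51 cells with Trp53 (84.3%, interval 71.4 to 93.0%), against 6 of 13 cells without it (46.2%, interval 19.2 to 74.9%). The intervals overlap at both ages. At 4 months, Ccng1 was in 16 of 51 cells with Trp53 and 0 of 13 without, Trp53inp1 in 16 and 1, Gadd45a in 15 and 1, and Mdm2 in 27 and 4. The cells with Trp53 had more genes in all. Their median was 3517.5 genes at 14 months, against 2553.5 in cells without Trp53, and 4269 genes at 4 months, against 2550. The part of that gap in the 4-month difference was not tested.

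The share of cells that held both members of a pair was set beside what their single shares would give. For the 15 pairs of the 6 measured genes, the product of the 2 shares lay inside the interval of the observed share in 15 of 15 pairs at each age. The check is weak with so few cells. At 4 months all 16 cells with Ccng1 held Trp53, and the product (19.9%) still lay inside the interval (15.0 to 37.4%). At 14 months 0 cells held both Aen and Trp53inp1, and the product (1.93%) lay inside too (0 to 5.44%). For such pairs the check cannot tell shared from separate detection. The observed share was above the product in 7 of 15 pairs at 14 months and in 12 of 15 at 4 months. With the product taken within cells of fewer and of more genes, it was above in 6 and 10 pairs. Trp53 and Mdm2 were found together in 15 of 66 cells at 14 months, where the product gives 15.8 cells, and in 27 of 64 cells at 4 months, where it gives 24.7. Mdm2 and Gadd45a were together in 5 cells of 14 months (product 2.42) and 9 cells of 4 months (product 7.75). Aen and Trp53inp1 were never together at 14 months (0 cells, product 1.27) and were together in 3 cells at 4 months (product 3.19). Spearman's rho between the levels of 2 members ran from -0.24 to 0.25 over the 66 cells of 14 months and from -0.054 to 0.34 over the 64 cells of 4 months. These are weak in sparse values, and the members of a pair share the depth of the cell.

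**Figure D4:**
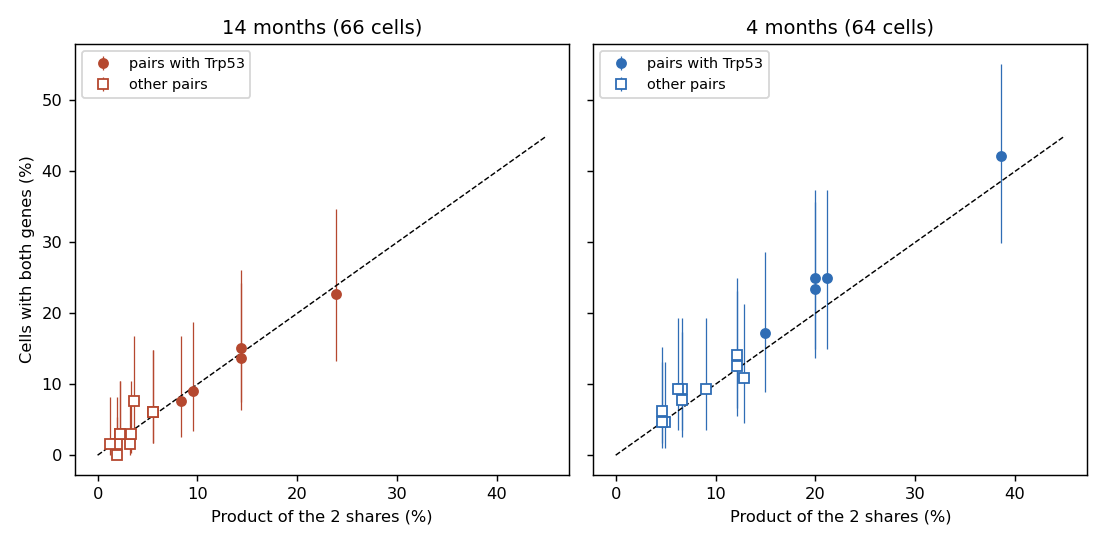
Percent of cells that held both genes of a pair (vertical axis, with exact 95% intervals) against the product of the 2 single shares (horizontal axis, percent), for the 15 pairs of measured members at 14 months (66 cells) and 4 months (64 cells). The dashed line marks equal values. Every interval reaches the line, and pairs with Trp53 (filled) lie farthest along it.

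Cells were also divided by how many of 22 genes of the G2 phase and mitosis they held, at a threshold of 25% of the list, which is a point on a range and not a cell type. At 14 months 30 of 66 cells passed it, and at 4 months 27 of 64. Trp53 was found in 90.0% of the passing cells and 69.4% of the others at 14 months, and in 85.2% and 75.7% at 4 months. Ccng1 was found in 26.7% and 11.1% at 14 months and in 29.6% and 21.6% at 4 months. Aen had the same shares as Ccng1 at 14 months, but 14.8% of passing cells and 21.6% of the others at 4 months. Trp53inp1 was found in 6.67% of passing cells and 13.9% of the others at 14 months, and 25.9% and 27.0% at 4 months, but in set 5 alone the shares were 11.1% of passing cells and 5.26% of the others. Mdm2 was found in 36.7% of passing cells and 25.0% of the others at 14 months, and in 51.9% and 45.9% at 4 months. For Gadd45a these shares were 13.3% and 11.1% at 14 months and 33.3% and 18.9% at 4 months. The intervals overlap in each of these comparisons. Within the cells counted, 11 at 14 months and 7 at 4 months lay near the threshold. Passing cells had more genes in all, a median of 3913 against 2681.5 at 14 months and 4987 against 3547 at 4 months.

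The genes whose level followed Trp53 most closely from cell to cell were Aldoa, Phgdh, Lgals9, Slc25a5 and C1d. Likeness was the mean of Spearman's rho taken within set 4, set 5 and the 4-month cells, over 5999 protein-coding genes found in at least 20% of the 130 kept cells. Aldoa, a glycolytic enzyme, had a mean rho of 0.50 (0.59 in set 4, 0.41 in set 5 and 0.50 at 4 months). Phgdh, the first enzyme of serine synthesis, had 0.46, and Lgals9, which encodes galectin-9, had 0.45. The mitochondrial ADP/ATP carrier Slc25a5 also had 0.45 and C1d 0.43. These 4 varied more between the groups. In set 4, set 5 and the 4-month cells, Slc25a5 was at 0.65, 0.20 and 0.49 and C1d at 0.64, 0.23 and 0.44. In the same order Phgdh was at 0.63, 0.41 and 0.34 and Lgals9 at 0.68, 0.39 and 0.27. Trp53 itself had a rho of 0.64 in set 4, 0.16 in set 5 and 0.42 at 4 months with the number of genes detected.

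Other p53 targets were taken from a list of 27 textbook genes, of which 17 were measured. The mean was lower at 14 months for 14 of these 17, near the 77% of all measured genes. A relative difference of -1 or less was reached by 3 of them, while 5.08% of measured genes reached it, and 0 reached 1 or more, against 3.37%. The list's median relative difference was -0.083. Btg2, an antiproliferative gene that p53 and growth signals both induce, was lowest at -2.97. It was found in 48 of 66 cells at 14 months and 60 of 64 at 4 months. Btg2 is also an immediate early gene, a class that stimulated cells transcribe at once and without new protein. Of a list of 13 such genes without Btg2, 13 of the 13 measured lay below the median gene and 8 were at -1 or less. Their summed level had a median of 2619 TPM (2.43 to 7282 TPM) at 14 months and 5025 TPM (195 to 10698 TPM) at 4 months. Their part in the value of Btg2 was not tested.

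Cd82, a tetraspanin, was found in 4 cells of 14 months (6.06%, interval 1.68 to 14.8%), against 19 cells of 4 months (29.7%, interval 18.9 to 42.4%). The mean was 0.177 TPM at 14 months against 79.1 TPM at 4 months. It lay at -1.25 in all, -1.16 in set 4 and -1.28 in set 5, and at 0 when medians over cells were used. The death receptor gene Tnfrsf10b, named after its values were seen as the third gene past -1, was found in 42.4% of 14-month cells (interval 30.3 to 55.2%), against 84.4% of 4-month cells (interval 73.1 to 92.2%). It lay at -1.09. Its levels were low, with means of 2.36 TPM at 14 months against 9.54 TPM at 4 months. At the upper end were Rps27l, a close copy of the ribosomal protein gene Rps27 with which reads may be shared, at 0.80 and Apaf1, the scaffold of the apoptosome, at 0.66. Rps27l had a mean of 435 TPM at 14 months against 370 TPM at 4 months, and was found in 86.4% and 78.1% of cells. Apaf1 was at 0 with medians over cells, and Rps27l ranged from 0.27 to 1.32 over the 19 alternatives.

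The classical arrest and death targets Cdkn1a and Bax were within 1 of the median gene. Cdkn1a, which encodes the kinase inhibitor p21, was found in 34 of 66 cells at 14 months (51.5%) and 37 of 64 at 4 months (57.8%), with means of 70.4 and 79.8 TPM. It lay at 0.20, with -0.11 in set 4 and 0.47 in set 5. Bax, an effector of mitochondrial cell death, was found in 16.7% and 28.1% of cells. It lay at -0.34, on opposite sides in set 4 (0.29) and set 5 (-0.80). The death receptor Fas was listed at 0 in every kept cell. Cdkn1a, Bax and Fas, and Mdm4, Cdkn2a, Trp63 and Trp73 among the regulators, were named after their values were seen, as well-known genes of the pathway.

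Regulators of p53 were taken from a list of 19 genes, of which 16 were measured. Lower means at 14 months were seen for 11 of them, against 77% of all measured genes, and 6 lay below the median gene, with a list median of 0.088. Chek1, a checkpoint kinase of replication stress, was the 1 gene of the 16 past 1 in size, at 1.56, where 8.46% of all measured genes were. It ranged from 0.56 (medians over cells) to 2.40 (pseudocount 0.1). It was found in 27 of 66 cells at 14 months (40.9%, interval 29.0 to 53.7%), against 22 of 64 at 4 months (34.4%, interval 22.9 to 47.3%). Its mean was 127 TPM at 14 months against 27.1 TPM at 4 months, or 111 and 21.4 TPM without the highest cell of each age. The relative difference was 0.98 in set 4 and 2.04 in set 5. Genes of the G2 phase and mitosis lay on the same side: 18 of the 22 lay above the median gene, and their summed level had a median of 493 TPM (0 to 9894 TPM) at 14 months and 137 TPM (0.590 to 7172 TPM) at 4 months. In set 4 that median was 153 TPM and in set 5 it was 653 TPM. In a subset chosen after seeing the data, cells with fewer than 5 of those 22 genes, the relative difference of Chek1 was 1.65, and 16.2% of measured genes passed 1 in size. The part of dividing cells in the value of Chek1 was not tested.

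Atr, the kinase that acts before Chek1, was next at 0.86. Transcripts were in 28.8% of 14-month and 17.2% of 4-month cells. At the lower end, Usp7, a deubiquitinase that stabilises Mdm2 and p53, was at -0.94 and was found in 51.5% of 14-month cells (interval 38.9 to 64.0%), against 73.4% of 4-month cells (interval 60.9 to 83.7%). Its mean TPM had the other order, 105 TPM at 14 months against 83.1 TPM at 4 months, but 48.6 and 69.7 TPM without the highest cell of each age. Over the 19 alternatives Usp7 ranged from -2.71 (medians over cells) to -0.47 (quantile normalization), while Atr and Daxx were at 0 with medians over cells. Daxx, a chromatin protein that binds both Mdm2 and p53, was at -0.62, in 24.2% and 40.6% of cells. Mdm4, the partner of Mdm2 that masks p53, was at 0.18, in 39.4% and 43.8% of cells. The p53 relatives Trp63 and Trp73 and the tumour suppressor locus Cdkn2a were listed at 0 in every kept cell.

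**Figure D5:**
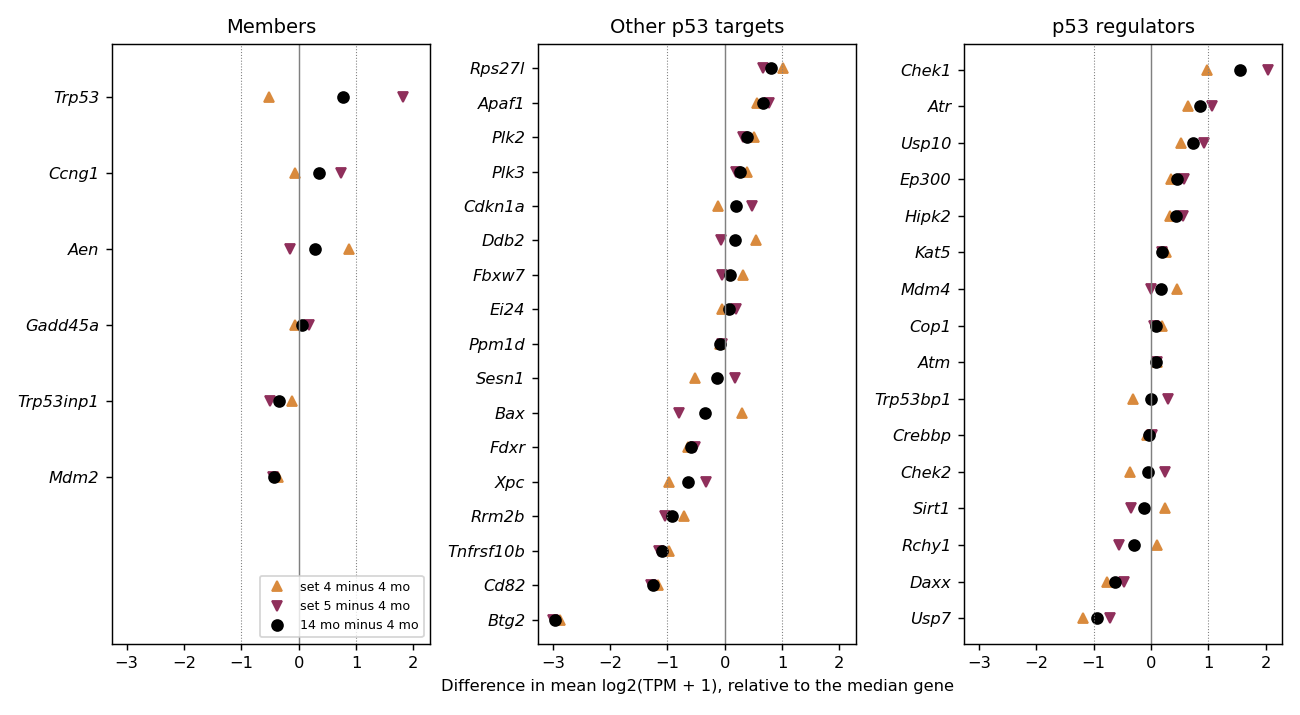
Difference in mean log2(TPM + 1) relative to the median gene (horizontal axis) for the measured members, other p53 targets and p53 regulators, 1 gene per line. Black dots are 14 months minus 4 months, and triangles set 4 or set 5 minus 4 months. Among the genes plotted, Trp53 shows the widest gap between the sets (-0.51 and 1.82), while Btg2, at -2.97, has nearly the same value in both.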

How the data were processed

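RNA of single LMPPs was measured in 83 labelled cells of 14 months and 84 of 4 months. The authors deposited TPM values, 1 column per cell, which per the submitters' processing notes were made with Bowtie2 2.2.0 and RSEM 1.2.12 on the mouse build mm10. Each column sums to about 1000000, so depth is not kept. The table has 84 columns of each age, so 1 column of 14 months has no label of its own. No column was left unused (0). No 2 kept columns were identical. Coordinates come from GENCODE M21 (same build), and 37607 identifiers had a symbol.

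Detection means TPM 1 or more. Means of log2(TPM + 1), with a pseudocount of 1, were compared as 14 months minus 4 months, relative to the median of 9224 measured genes (-0.36, with -0.43 in set 4 and -0.34 in set 5). The calculation was tested on simulated data. The named genes are all members, and the 2 highest and 2 lowest measured genes of the other lists. The members, lists and rules were chosen with earlier results of these data known. Some marker results are not reported here. No doublet caller was run, since it needs counts. Python 3.11.15, numpy 2.4.6, pandas 2.3.3 and scipy 1.17.1 were used.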

Additional observations from a re-analysis of the deposited data

Results flagged for a closer look

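Trp53 had relative differences of opposite sign in the 2 sets of 14-month cells, and the value in set 5 exceeded that in set 4 by 2.33 on the log2(TPM + 1) scale. Aen also had opposite signs, in the other order, and set 5 minus set 4 was -1.04. Both sets were set against the same 4-month cells. Neither difference was tested, since the labels do not explain the sets and name no animal.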

How the results depend on the processing

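Each age counts as 1 sample, so nothing here measures the spread between animals. Of 19 alternatives, 2 were chosen after seeing the data (genes in at least 5% of cells, and cells with fewer than 5 G2/M genes), as was the split of cells at 3789.5 genes. No paired analysis was possible because the columns carry no replicate number of the labels and each age counts as 1 sample. The median relative difference of the measured members, 0.17, did not keep its sign. It was 0.081 with a pseudocount of 10, 0.34 with detection at TPM 5 or more, -0.043 in cells with 2000 or more genes, 0.090 over all columns, 0.041 with no filter on low values and 0.31 for genes in at least 30% of cells. It was -0.19 when not taken relative to the median gene, -0.094 in set 4, 0.017 in set 5, -0.27 in cells matched on genes detected, 0 with medians over cells and -0.080 in cells with fewer than 5 G2/M genes. The count of measured members under the median gene, 2 of 6, became 4 of 9 with no filter and 1 of 2 with the 30% filter. Of 6, it became 4 in cells with 2000 or more genes, when not taken relative to the median gene and in cells with fewer than 5 G2/M genes, 5 in set 4 and in matched cells, and 1 with medians. In 3 alternatives 1 member, Trp53, passed 1 in size (pseudocount 0.1, 1.25; set 5, 1.82; matched cells, 1.83), as did 22.4%, 13.2% and 14.9% of all measured genes there. The share of cells with 3 or more members became 47.0% at 14 months with detection above 0 and 39.4% after quantile normalization, where the 4-month shares were 56.2% and 46.9%. The 4-month share became 31.1% with detection and the cell filter at TPM 5 or more, against 15.4% at 14 months, and 34.8% in cells under 3789.5 genes. The cause of these changes was not tested.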

Other observations

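The columns that held fewer than 1000 genes, and that entered only the alternative over all columns, showed little of the set. Trp53 was at TPM 1 or more in 6 of 18 such columns at 14 months and 7 of 20 at 4 months, Aen in 1 and 1, and Gadd45a in 0 and 1. The other 7 members were found in 0 of these columns.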
